A study of Mus musculus with 2 samples.

Results

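The globins of mouse red cells and their chaperone Ahsp were followed in fetal liver progenitors that over-expressed ESlncRNA, a long noncoding RNA of erythroid cells also known as lincRNA-EPS. The genes were Hba-a1, Hba-a2, Hba-x, Hbb-b1, Hbb-b2, Hbb-bh1, Hbb-y and Ahsp, taken by gene name from the 2 array files, and they numbered 8 of the 36413 gene names and intervals on the array. They had 9 probes, 1 spot each per array, with 2 probes for Hbb-y and 1 for each other gene. Each array was a 2-colour oligonucleotide array that paired total RNA of ESlncRNA-transduced cells, labelled with Cy5, with total RNA of vector-transduced cells, labelled with Cy3. All cells were lineage-negative erythroid progenitors of C57BL/6 fetal liver at stage E14.5 (embryonic day), transduced and then sorted as GFP+, so the vector cells carried a GFP vector too. Replicates 1 and 2 are 1 array each (n = 2 arrays), with no dye swap, and nothing in the labels says whether they came from separate cultures or animals, or how many animals were pooled. The only spread behind a p-value is thus that of 2 arrays, possibly a technical one, and a dye effect of a probe cannot be told apart from the treatment.

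Haemoglobin is a tetramer of alpha-like and beta-like chains, each of which holds a haem. In the mouse the alpha cluster holds the embryonic zeta gene, Hba-x, and the adult genes Hba-a1 and Hba-a2, and the beta cluster holds the embryonic genes Hbb-y (epsilon-y) and Hbb-bh1 and the adult beta genes. Embryonic chains are made by primitive red cells of the yolk sac, and definitive red cells of the fetal liver make mainly the adult chains. Ahsp binds free alpha globin and keeps it from precipitating. C57BL/6 mice carry the adult beta genes now called Hbb-bs and Hbb-bt, whereas the names Hbb-b1 and Hbb-b2 belong to another haplotype. The accession of the array's Hbb-b1 probe stands under Hbb-bt in the RefSeq table, and that of the Hbb-b2 probe under Hbb-b2.

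The probes are shown because they decide which of these close relatives a spot can read. They are given 5′ to 3′ from the array files, whole at 60 bases or as a stretch of 30 bases where the probe may lie in an untranslated region. Capitals mark the longest run shared with another globin or Ahsp probe, except in Hba-a2 and the second Hbb-y probe, where they mark the polyadenylation signal.
Hba-a1: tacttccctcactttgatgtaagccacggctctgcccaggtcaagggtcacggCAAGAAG
Hba-a2: tcttggtctttgAATAAAgcctgagtagga
Hba-x: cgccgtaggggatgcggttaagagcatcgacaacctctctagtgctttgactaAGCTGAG
Hbb-b1: ttttctgctatTGTCTATGcacaaaggtta
Hbb-b2: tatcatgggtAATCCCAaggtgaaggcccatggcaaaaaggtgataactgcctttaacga
Hbb-bh1: ggcaatcccatgTGTCTATGatgccctctt
Hbb-y: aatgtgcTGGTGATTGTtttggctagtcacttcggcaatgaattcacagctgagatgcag
Hbb-y, second probe: cacatcatgtttAATAAAgatcatccttcc
Ahsp: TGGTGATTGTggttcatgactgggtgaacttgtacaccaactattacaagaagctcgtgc

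Among the 66 pairs of 12 globin and Ahsp probes on the array, no run of shared bases was longer than 10. With any other probe of the array the longest run was 15 bases, on either strand. These counts compare probes with probes, and cross-hybridisation to transcripts was not tested. The probes of Hba-a1 and Hba-a2 are each listed in the files with both accessions, NM_008218 and NM_001083955, so neither tells the 2 adult alpha genes apart. They read different parts of the message, from base 161 (Hba-a1) and base 497 (Hba-a2) per the files, and the labelling started from an oligo-dT primer per the labels' protocols.

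On mm9, the files place the alpha probes on chromosome 11, forward strand: Hba-x at chr11:32177668-32177727, Hba-a1 at chr11:32183955-32184014 and Hba-a2 at chr11:32197245-32197304. The beta probes lie on chromosome 7, reverse strand. Hbb-b1 is at chr7:110961105-110961164, Hbb-bh1 at chr7:110990209-110990268, and the probes of Hbb-y are at chr7:111000448-111000507 and chr7:111000268-111000327. The files list the probes of Hbb-b2 and Ahsp as unmapped, and no exon annotation of mm9 was used here.

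Signals are mean pixel values of a spot in scanner units, before background correction. Over all spots the median was 35.9 to 39.5 in the vector channel and 67.8 to 76.3 in the ESlncRNA channel. These medians include the local background, which was itself higher in Cy5. At the spots of these genes it was 16 to 23 in Cy3 and 42 to 57 in Cy5. Of the spots, 49.1% to 52.1% (vector) and 44.4% to 45.6% (ESlncRNA) were well above background, and 0 were saturated. The brighter a probe was, the more its uncorrected ratio leaned to Cy5, and loess subtracts that trend within each array. A log2 ratio below is ESlncRNA over vector after normexp background correction and loess, given as the mean of 2 arrays ± SD. Of 55681 probes, 26788 passed the scanner software's mark for signal well above background, in 1 channel or both on each array, and were tested. Adjusted p-values come from limma with Benjamini-Hochberg adjustment over all of them, with 0.05 as the threshold.

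In cells with ESlncRNA the adult alpha probes, both Hbb-y probes and Ahsp rose, by 1.35-fold to 2.03-fold, and the adult beta probes stayed near a ratio of 1 without passing the test. Hbb-bh1 pointed opposite ways on the 2 arrays, and Hba-x was at background. Of the 8 tested probes of these genes, 5 were higher and 0 lower, where 25.9% of all tested probes were called higher, 35.8% lower and 61.7% in either direction. By gene, 4 of 7 tested genes rose and 3 did not pass, and Hba-x was not tested. All these directions are relative to the loess trend. Settings that change them are given after the genes.

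**Figure D1:**
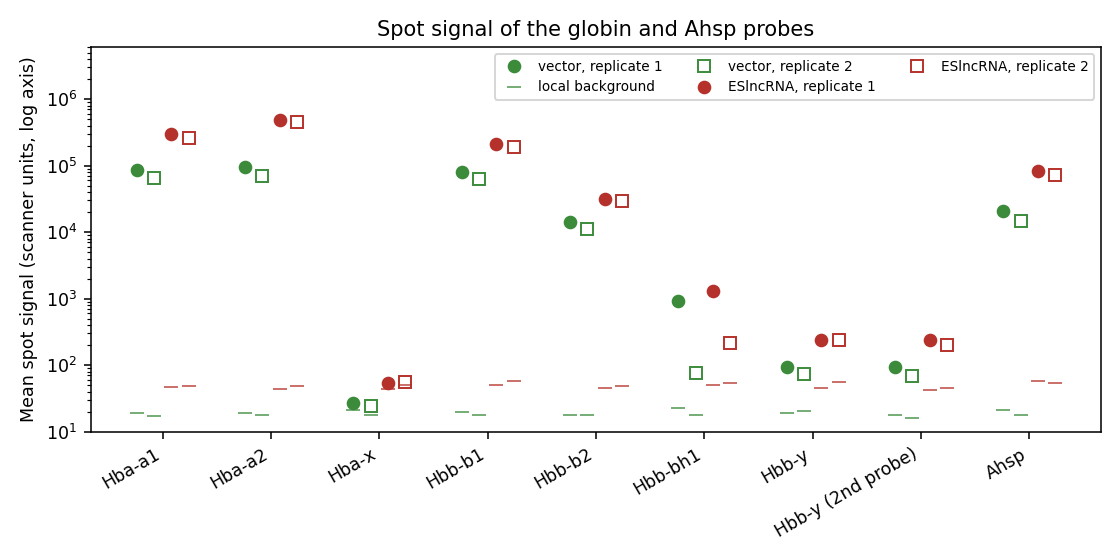
Mean spot signal (scanner units, log axis) of the 9 probes in the vector (green) and ESlncRNA (red) channels of replicate 1 (filled circles) and replicate 2 (open squares), with dashes at the local background. The 2 arrays are close for every probe except Hbb-bh1, and Hba-x lies just above its background in all 4 values.

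Both adult alpha probes were among the brightest hundredth of the tested probes, which is a statement on spots and not on transcript levels. The Hba-a1 probe had signals of 85612 and 65429 in the vector channel and of 297545 and 259151 in the ESlncRNA channel, on replicates 1 and 2. The ESlncRNA values were the higher ones on both arrays, as were that channel's medians. After loess the ratios were 0.44 and 0.43, a mean of 0.43 ± 0.0036 or 1.35-fold higher (adjusted p = 3.54e-04 by limma). This call was lost with Agilent's processed signals, which gave 0.21 (adjusted p = 0.0824 by limma).

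The Hba-a2 probe had vector signals of 95095 and 69232 and ESlncRNA signals of 484876 and 448885. Its ratios of 0.94 and 1.1 gave 1.02 ± 0.11, or 2.03-fold higher (adjusted p = 1.4e-05 by limma). Of all tested probes, 99.4% had a lower ratio than Hba-a2 and 93.3% a lower one than Hba-a1. Although the files list both probes for the same 2 transcripts, Hba-a2 exceeded Hba-a1 by 0.51 on replicate 1 and by 0.67 on replicate 2. The difference of 0.59 ± 0.11 between them was larger than the spread between arrays. No test of this difference was run, and its cause was not tested.

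Ahsp, the chaperone of alpha chains, had vector signals of 20581 and 14839 and ESlncRNA signals of 82763 and 73320. The ratios were 0.84 and 0.94, a mean of 0.89 ± 0.065 or 1.85-fold higher (adjusted p = 1.6e-05 by limma). A lower ratio was found for 98.9% of the tested probes. On each array Ahsp lay between the 2 adult alpha probes, and it exceeded Hba-a1 by 0.41 and 0.51.

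The adult beta probes had lower ratios than the alpha probes on both arrays. The Hbb-b1 probe, whose accession is that of Hbb-bt, had vector signals of 80945 and 63542 and ESlncRNA signals of 210035 and 188494. These spots sat on the loess trend, with ratios of 0.045 and 0.038 and a mean of 0.041 ± 0.0048 (adjusted p = 0.481 by limma). The sign of this small value turned with Agilent's processed signals, to -0.25 and -0.15 on the 2 arrays, again without passing (adjusted p = 0.0703 by limma). With median centring in place of loess it was called higher, as were Hbb-b2 and Hbb-bh1.

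The Hbb-b2 probe had vector signals of 14412 and 11190 and ESlncRNA signals of 31732 and 29224. Its ratios were 0.070 and 0.098, a mean of 0.084 ± 0.020 (adjusted p = 0.172 by limma). A further probe, which the files name by an Ensembl transcript of the adult minor beta chain and which falls outside the gene names followed here, gave a like ratio. A stretch of it is shown with the start codon in capitals.
Adult minor beta probe: aaccccagaaacagacatcATGgtgcacct
It shares 46 bases in a row with the first 50 transcribed bases of Hbb-bs in the RefSeq table and 12 with those of Hbb-bt. Its vector signals were 9926 and 8029, its ESlncRNA signals 20713 and 19556, and its ratio 0.048 ± 0.0020 (adjusted p = 0.414 by limma). None of the 3 adult beta probes thus passed the test, and their mean ratios lay between 0.041 and 0.084.

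The adult alpha and adult beta probes can be set against each other within each array, where the spots share the hybridisation. Hba-a1 exceeded Hbb-b1 by 0.39 on both arrays, and these are probes of like brightness, ranked 241 and 367 among the tested probes. Over the 13 other settings this difference stayed between 0.34 and 0.42. It was smaller than the 0.59 between the 2 adult alpha probes, which the files list for the same transcripts. Whether the difference of alpha and beta reflects the genes or the probes was not tested. Hbb-b2 exceeded Hbb-b1 by 0.025 and 0.060, and under median centring in place of loess the order of those 2 turned, to -0.21.

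**Figure D2:**
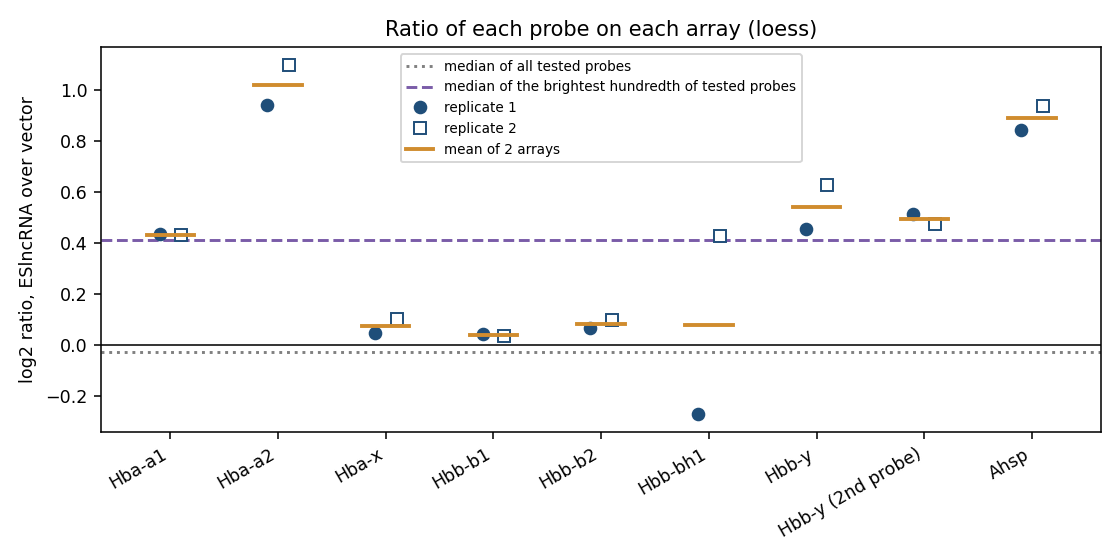
Log2 ratio of ESlncRNA over vector for each probe on replicate 1 (filled circles) and replicate 2 (open squares), with the mean of 2 arrays (bars), the median of all tested probes (dotted, -0.027) and the median of the brightest hundredth (dashed, 0.41). Hba-a2 and Ahsp lie well above the dashed line, Hba-a1 on it and the adult beta probes below it, and the 2 points of Hbb-bh1 lie on opposite sides of 0.

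Among the embryonic genes, Hbb-y alone passed the test in the main fit. Whether these genes differed in response cannot be decided, because Hba-x was at background and the Hbb-bh1 ratios had opposite signs on the arrays. Hbb-y, the epsilon-like chain of primitive red cells, gave weak spots that were well above background in all 4 channels. Its brighter probe had vector signals of 95.0 and 73.0, over local backgrounds of 19.0 and 20.5, and ESlncRNA signals of 236 and 237, over 45.0 and 55.0. The ratios of 0.46 and 0.63 gave 0.54 ± 0.12, or 1.46-fold higher (adjusted p = 3.25e-04 by limma).

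The second Hbb-y probe read the 3′ end of the message, with vector signals of 92.4 and 69.9 and ESlncRNA signals of 241 and 203. It gave 0.52 and 0.48, a mean of 0.50 ± 0.028 or 1.41-fold higher (adjusted p = 1.99e-04 by limma). The 2 probes of Hbb-y share no long run. Their means of 0.54 and 0.50 differed by less than the SD of the brighter probe (0.12), but by more than that of the second (0.028). With Agilent's processed signals the mean of the brighter probe was 1.16, still called (adjusted p = 0.0249 by limma).

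Hba-x, the zeta chain, was not well above background in any of the 4 channels, with vector signals of 27.1 and 24.6 over backgrounds of 21.0 and 18.0. The ESlncRNA signals were 54.6 and 56.3 over 44.0 and 51.0. No fold is given, since both groups were at background.

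Hbb-bh1, the other embryonic beta-like chain, was the one gene here whose signals differed widely between the 2 arrays. On replicate 1 its signals were 937 (vector) and 1308 (ESlncRNA), and on replicate 2 they were 75.4 and 212. Once the local background was subtracted, the spot was 15.9-fold brighter on replicate 1 in the vector channel and 7.90-fold brighter in the ESlncRNA channel. For the other 7 tested probes these background-subtracted factors ran from 1.05 to 1.45.

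The Hbb-bh1 ratios were -0.27 and 0.43, so the mean of 0.079 ± 0.49 described neither array (adjusted p = 0.663 by limma). The difference of 0.70 between arrays was exceeded by 11 tested probes and compares with a median of 0.075 over all. Of 26506 tested probes with 1 spot per array, 21 (0.0792%) differed more than 4-fold between arrays in background-subtracted signal, in the same direction in both channels, 12 brighter on replicate 1 and 9 on replicate 2. Hbb-bh1 was the one globin among them.

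Erythroid genes whose gap lay mainly in the vector channel, chosen after their values were seen, were Slc4a1, the band 3 anion exchanger, and Alas2, the erythroid enzyme that starts haem synthesis. The Slc4a1 signals were 1657 and 210 (vector) and 2092 and 1229 (ESlncRNA), with ratios of -0.45 and 1.48. Those of Alas2 were 1312 and 398 (vector) and 2245 and 1387 (ESlncRNA), with ratios of -0.017 and 0.77. Neither was among the 21 probes. In both, as in Hbb-bh1, replicate 1 had the higher vector signal and the lower ratio. Whether this reflects the RNA samples or the spots was not tested.

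The brightest spots as a class leaned upward after loess. Hba-a2 (rank 69 by brightness) and Hba-a1 (rank 241) belonged to them, whereas Hbb-b1 (rank 367), Ahsp (rank 1266) and Hbb-b2 (rank 1987) were dimmer and are set beside them only as a description. Of the 268 probes in the brightest hundredth, 251 (93.7%) were called higher and 1 (0.373%) lower, with a median ratio of 0.41. Against that median Hba-a1 differed by 0.022, Hba-a2 by 0.61 and Ahsp by 0.48, and Hbb-b1 and Hbb-b2 lay below it, by -0.37 and -0.33. Of the 268 bright probes, 124 had a higher ratio than Hba-a1, 14 a higher one than Ahsp and 5 a higher one than Hba-a2, but 259 a higher one than Hbb-b1. The Hba-a1 rise was therefore that of a typical bright probe.

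**Figure D3:**
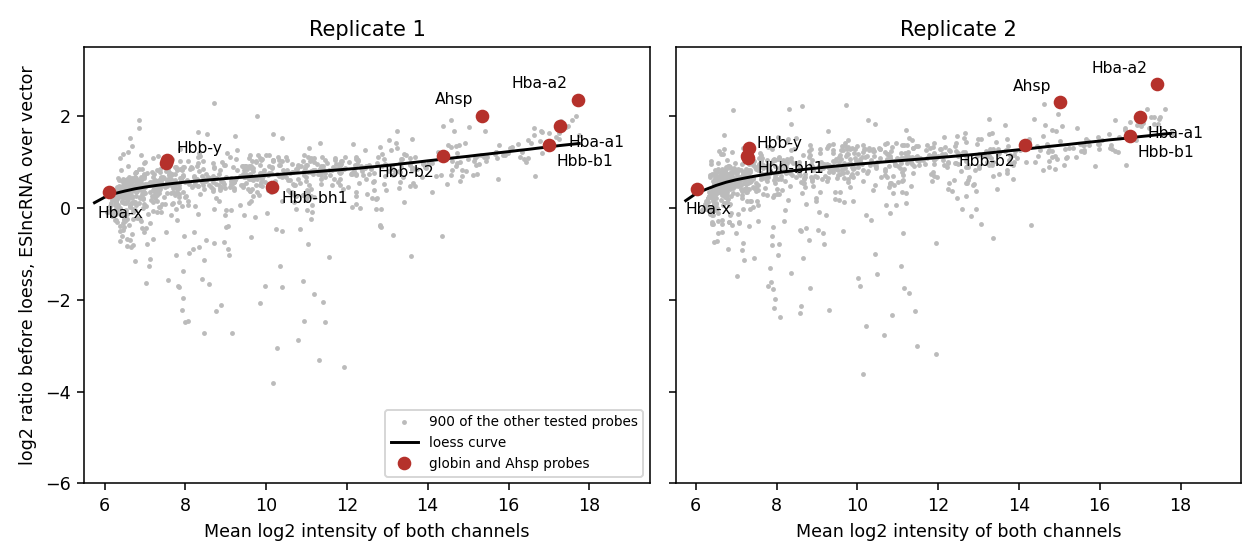
Log2 ratio of ESlncRNA over vector before loess against the mean log2 intensity of both channels, for each array, with 900 randomly drawn tested probes (grey), the loess curve (black) and the globin and Ahsp probes (red, the 2 Hbb-y probes under 1 name). The curve climbs with intensity, Hbb-b1 and Hbb-b2 lie on it, Hba-a1, Hba-a2 and Ahsp lie above it, and Hbb-bh1 sits at different intensities on the 2 arrays.

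The size of the correction differed between dim and bright members. Before loess the Hba-a1 ratios were 1.80 and 1.99, of which the curve removed 1.36 and 1.55. For the brighter Hbb-y probe they were 0.98 and 1.30, of which it removed 0.52 and 0.67. For Hbb-b1 they were 1.38 and 1.57, and the curve removed 1.33 and 1.53. Leaving the members out of the loess fit moved no call, and Hba-a1 was then at 0.43 and Hbb-b1 at 0.042.

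Where each array was only centred on its median, all 8 tested probes of these genes were called higher, among them Hbb-b1 at 1.1, Hbb-b2 at 0.88 and Hbb-bh1 at 0.40. The median of all tested probes was then 0.31, against -0.027 with loess and 0.13 with the processed signals. Relative to it, median centring left Hba-a2 at 1.84, Ahsp at 1.47, Hba-a1 at 1.2, Hbb-b1 at 0.79, Hbb-b2 at 0.57, Hbb-y at 0.45 and Hbb-bh1 at 0.088. Of all calls, 41.9% were of higher probes after loess, 77.7% after median centring and 60.7% from the processed signals.

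With the processed signals, where Hba-a1 did not pass, Hba-a2 at 0.65, Ahsp at 0.88 and Hbb-y did (adjusted p = 0.0392, 0.0140 and 0.0249). Hba-a2, Ahsp and Hbb-y were called higher in the main fit and in every other setting that gave a test. The order of embryonic and adult beta depended on the setting, with Hbb-y minus Hbb-b1 at 0.50 after loess, -0.33 after median centring and 1.36 from the processed signals.

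**Figure D4:**
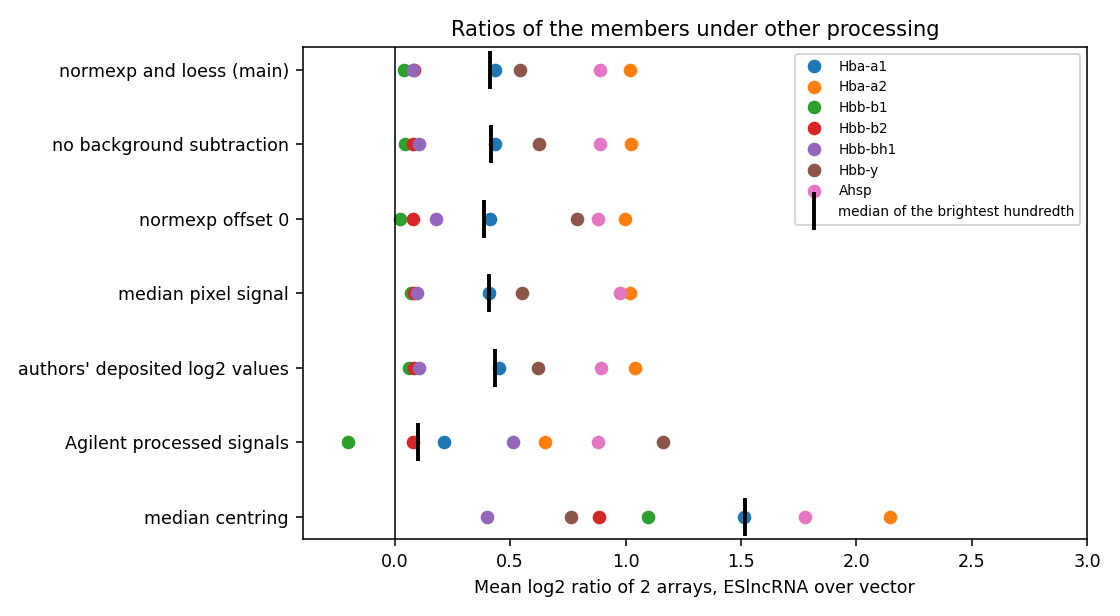
Mean log2 ratio of ESlncRNA over vector for the 7 tested genes (coloured points) under the main processing and 6 others, with the median of the brightest hundredth of tested probes (black bars). Hba-a2 and Ahsp lie above the black bar in all 7 lines and Hbb-b1 below it, whereas Hbb-y moves from the lower side of Hba-a1 under median centring to the highest value with the processed signals.

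Haem is the cofactor of every globin chain, and its enzymes rose with the alpha globins and Ahsp. Of 12 genes of haem synthesis and iron import, 10 rose, 1 fell and 1 did not pass, where 25.9% of all tested probes rose, with a median of 0.59 against -0.027 over all. Cpox, which makes protoporphyrinogen, was 2.44-fold higher at 1.29 ± 0.081 (adjusted p = 3.28e-06 by limma). Fech, which inserts the iron, was 2.03-fold higher at 1.02 ± 0.055, and Uros, which closes the porphyrin ring, 2.01-fold higher at 1.01 ± 0.053. Ppox, the next to last enzyme, reached 0.76 ± 0.030. Slc25a37, the mitochondrial iron importer mitoferrin-1, fell, to -0.55 ± 0.18 (adjusted p = 7.12e-04 by limma). Alas2 did not pass, at 0.38 ± 0.56.

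Of 37 regulators of globin genes, 15 rose, 10 fell and 12 did not pass, with a median of -0.00084. That share of calls is near the 61.7% of all tested probes. Klf1, the activator of adult beta globin that binds CACCC boxes, had ratios of 0.94 and 0.80 and was 1.82-fold higher (adjusted p = 2.63e-05 by limma). Igf2bp1, an RNA-binding protein of fetal cells, had 0.99 and 0.98 and was 1.98-fold higher (adjusted p = 7.22e-06 by limma). Its relative Igf2bp3, named after its value was seen, was 1.56-fold lower at -0.64 ± 0.035 (adjusted p = 6.04e-05 by limma). Myb, a factor of proliferating progenitors whose loss raises embryonic and fetal globin, had -0.94 and -0.78 and was 1.81-fold lower. Nfe2, the partner of small Maf proteins at the globin control region, had -0.69 and -0.62 and was 1.58-fold lower.

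Named outside the rule for their roles, Bcl11a, a silencer of embryonic beta-like genes, stood at 0.54 ± 0.045 and Gata1 at 0.50 ± 0.026, both called higher. Bcl11a and the embryonic Hbb-y were thus higher side by side. Under median centring, 31 of the 37 regulators were called higher and 1 lower.

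**Figure D5:**
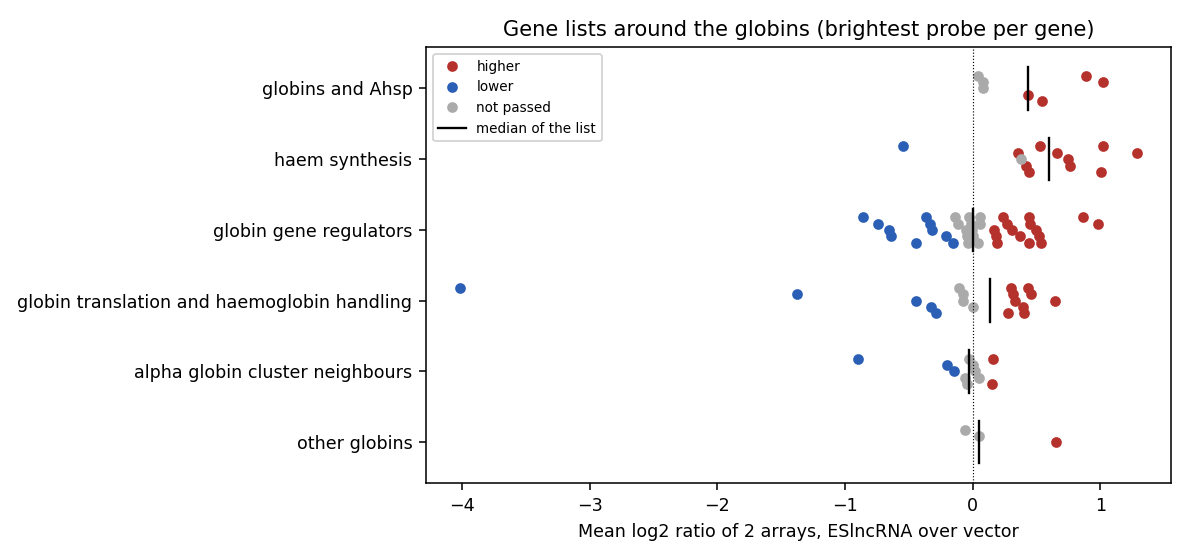
Mean log2 ratio of ESlncRNA over vector (1 point per gene, brightest probe) for the 7 tested globin and Ahsp genes and 5 lists, coloured by the limma call at adjusted p under 0.05, with the median of each list as a black line. Haem synthesis lies mostly to the right of 0, the regulators and the neighbours of the alpha cluster on both sides, and Hp stands far to the left at -4.01.

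Genes of globin translation and haemoglobin handling were tested for 18 of 20, of which 9 rose, 5 fell and 4 did not pass (median 0.14). Over all tested probes 25.9% rose and 35.8% fell. Eif2ak1, the haem-regulated kinase that holds back globin translation when haem is scarce, rose by 0.64 ± 0.031 (adjusted p = 5.93e-05 by limma). Nudt4 rose by 0.45 ± 0.044. Hp, the haemoglobin scavenger haptoglobin, had -4.00 and -4.03 and was 16.2-fold lower (adjusted p = 5.47e-08 by limma). Pcbp4, an RNA-binding protein of the family that stabilises alpha globin messages, was 2.59-fold lower at -1.37 ± 0.014. Its relatives Pcbp1 and Pcbp2, named after their values were seen, stood at -0.078 ± 0.019 and -0.11 ± 0.035 and did not pass. The other genes that fell were Xpo7 (-0.44), Hpx (-0.32) and Hnrnpk (-0.29).

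Of 11 genes beside the alpha cluster, 2 rose, 3 fell and 6 did not pass. Over all tested probes 25.9% rose and 35.8% fell. The 11 genes had a median of -0.027. With median centring 9 were called higher and 1 lower, with a median of 0.50. Rhbdf1, an inactive rhomboid protein, was 1.86-fold lower at -0.90 ± 0.010 (adjusted p = 1.1e-05 by limma). Axin1, a scaffold of Wnt signalling, was at -0.20 and Snrnp25, a spliceosome protein, at -0.15. Luc7l was at 0.16 and Mpg, a DNA glycosylase, at 0.15, and neither was called in 5 of the other settings. In each of those 5, 2 neighbours were called lower, against 3 in the main processing. Nprl3, whose introns hold the alpha enhancers, stood at -0.049 ± 0.087 and did not pass.

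Of the other globins, 3 of 6 were tested, and Cygb, cytoglobin, rose by 0.65 ± 0.23 (adjusted p = 6.27e-04 by limma). With the authors' deposited log2 values it was not called. Hbq1a and Hbq1b, theta globin genes at the end of the alpha cluster that also stand among its 11 neighbours, were at -0.062 ± 0.055 and 0.047 ± 0.11 and did not pass. A predicted beta-globin-like locus, LOC630152, was below background in all 4 channels.

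Promoters of 6 globin genes were in the RefSeq table, and 4 are shown, of adult alpha, adult beta and embryonic beta genes. Whether these sequences bear on the ratios of the probes was not tested. The 110 bases before the start site are given on the gene's own strand, from GRCm38.p6. Capitals mark CACCC (the box of Klf1 and its relatives), CCAAT, the TATA-like TATAA and ATAAA, which overlap by 4 bases, and the GATA motifs AGATAA and TGATAA, on either strand. The windows are chr11:32283562-32283671, chr7:103827929-103828038, chr7:103813924-103814033 and chr7:103853208-103853317, in the order of the lines.
Hba-a1: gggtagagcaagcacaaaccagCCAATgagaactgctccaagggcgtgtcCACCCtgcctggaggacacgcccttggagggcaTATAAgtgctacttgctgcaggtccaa
Hbb-bs: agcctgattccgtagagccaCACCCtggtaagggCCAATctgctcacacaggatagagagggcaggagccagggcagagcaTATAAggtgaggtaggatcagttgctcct
Hbb-bt: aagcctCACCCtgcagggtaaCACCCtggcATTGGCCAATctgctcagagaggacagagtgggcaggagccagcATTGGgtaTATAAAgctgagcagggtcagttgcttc
Hbb-y: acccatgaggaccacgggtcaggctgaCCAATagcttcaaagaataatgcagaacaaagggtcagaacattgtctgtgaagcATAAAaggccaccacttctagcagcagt

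In the table's full window, 250 bases before to 50 after the start, Hba-a1 had 2 CACCC boxes, at 60 and 167 bases before the start. Hbb-bt had 3, at 89, 104 and 140, Hbb-bs had 1, at 90, and Hbb-y had 1, at 111 and so just outside the printed stretch. The GATA motifs all lay outside the printed stretches. TGATAA stood at 183 in Hba-a1 and, on the opposite strand, at 162 in Hbb-y. AGATAA stood at 210 in Hbb-bs, and Hbb-bt had neither. Over all 32851 promoters of the table, 57.5% held CACCC, 37.4% CCAAT, 24.9% TATAA, 40.0% ATAAA, 11.2% AGATAA and 9.05% TGATAA on either strand. CACCC was thus common to the genes that rose and those that did not pass, and to more than 1 promoter in 2 of the table. Hba-a1 and Hba-a2 share 247 bases in a row in the 250 before their starts. Hbb-bt and Hbb-bs share 14. A match of letters is no evidence of binding.

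The labelled cell type was checked against marker lists, and most tested markers of other lineages fell. All 14 erythroid markers were well above background in both channels, 11 rose, 1 fell and 2 did not pass, with a median of 0.80. Of all tested probes, 25.9% rose and 35.8% fell. The summed signal of the erythroid markers ran from 67571 to 75159 in the vector channel and from 250253 to 275922 in the ESlncRNA channel. This sum and those of the other lineages are of background-subtracted signals without loess. They thus keep the lean of bright spots to Cy5 and are no measure of fold. Sptb was the one that fell (-0.29), and Slc4a1 and Alas2 did not pass. Alas2 and Tfrc also stand in the haem list, and Klf1 and Gata1 among the regulators.

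Where 35.8% of all tested probes fell, all 15 granulocyte markers fell (median -4.38), though they all stayed above background in both channels. Their summed signal went from 791920 to 803098 (vector) to 66792 to 83850 (ESlncRNA). All 10 tested macrophage markers fell (median -0.93, with sums of 6991 to 7587 and 1313 to 1511), and 4 of them were above background with ESlncRNA. All 11 megakaryocyte markers fell (median -1.43, with sums of 47993 to 54937 and 29751 to 30849).

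Of the tested markers, 6 of 7 of mast cells and basophils fell, with a median of -2.0. So did 9 of 10 of stem and early progenitor cells, with a median of -2.4. Kit stands in both of these lists and was the one marker that rose in each. Markers of hepatocytes (7 of 9), endothelium (7 of 8) and lymphocytes (3 of 5) fell too, with medians of -0.69, -1.17 and -0.33. The other 2 lymphocyte markers rose, where 25.9% of all tested probes rose and 35.8% fell. At normexp offset 0 the medians were -2.89 for mast cells and basophils and -3.08 for stem and early progenitor cells. Those of hepatocytes, endothelium and lymphocytes were then -1.06, -2.36 and -1.06. The summed signal of the mast cell and basophil markers was 31079 to 32215 (vector) against 26296 to 30119 (ESlncRNA), and that of the stem and progenitor markers 35599 to 36569 against 30045 to 35342. Hepatocyte markers summed to 5603 to 6466 against 3070 to 3331, endothelial markers to 7787 to 8357 against 3550 to 4171, and lymphocyte markers to 1829 to 1972 against 1026 to 1085. The part of these lineages in the globin ratios was not tested. In such bulk RNA, more erythroid cells and more globin RNA per cell cannot be told apart. Hp, the gene of the handling list with the lowest ratio, is also made by myeloid cells and hepatocytes.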

How the data were processed

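The scanner images of both arrays went through Feature Extraction 10.1.1.1, as the file headers state. Of the authors' deposited intensities, the uncorrected mean signal of a spot and its median local background were taken for each channel. The software's processed intensities, which the headers describe as background-subtracted and corrected for dye, were an alternative among the deposited columns. The authors' deposited log10 ratio of Cy5 over Cy3 only checked the direction (r = 0.985 and 0.992 with the processed signals). The authors' deposited log2 values, made with limma per the submitters' processing notes, correlated at r = 0.999958 and 0.999959 with loess on signals left without background subtraction. They had medians of -0.02 and -0.01, and took their scale and direction from that comparison. Here normexp (offset 50) and loess were applied, with control spots and outlier spots (284 and 308 of 59305) at weight 0. R 4.3.3 and limma 3.58.1 were used. Spots of a probe were averaged, and an intercept was fitted (1 residual and 5.27 prior degrees of freedom). The steps were tested on simulated data. Each gene stands for its brightest probe, and for Hbb-y both probes are given. Probes were named by accession (26413), symbol (3859) or older symbol (735) through the RefSeq table of GRCm38.p6, and 24674 kept the file's name. Ahsp was named by the file. The number of arrays limits the precision. The arrays shared 1 slide and 1 scan, so no batch could be compared. Each array pairs 1 ESlncRNA with 1 vector sample, and the fit without that pairing is an alternative. Members and lists were chosen with earlier results of these data known. Named were all probes of the 8 genes, the 4 genes of smallest p in each list, and genes of counts of 5 or fewer. The brightest hundredth of probes was set apart without use of their ratios. Promoter and start sequences are RefSeq's, from GRCm38.p6, and probe sequences and mm9 positions are those of the array files.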

Additional observations from a re-analysis of the deposited data

How the results depend on the processing

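Besides the main processing, 13 others were run over all probes, of which the median of pixels was chosen after seeing the data, as were the differences between genes under each setting. One more, the mean over all probes of a gene, changed no call. Calls of Hba-a2, Hbb-y and Ahsp passed in every setting with a test. Without replicate 1 or 2 there is a value and no test. Hbb-bh1 then ran from -0.27 to 0.43, Hba-a2 from 0.94 to 1.1 and Ahsp from 0.84 to 0.94. Without the replicate block, that is with 4 separate channels, Hba-a1 at 0.43, Hba-a2 at 1.02, Hbb-y at 0.54 and Ahsp at 0.89 kept their calls, and of all probes 4475 were higher and 7431 lower, against 6929 and 9597 with it.

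With the processed signals Hba-a1 was at 0.21 and Hbb-b1 at -0.20, and 9277 probes were higher and 6017 lower. The alpha neighbours then had 5 higher and 1 lower, the handling list 3 lower and the other globins 3 higher. Differences were 0.42 for Hba-a1 minus Hbb-b1, 0.44 for Hba-a2 minus Hba-a1, 0.28 for Hbb-b2 minus Hbb-b1, 1.36 for Hbb-y minus Hbb-b1 and 0.67 for Ahsp minus Hba-a1. With median centring limma gave all probes 1 common spread (infinite prior degrees of freedom). Hbb-b1 was at 1.1, Hbb-b2 at 0.88 and Hbb-bh1 at 0.40, 8 probes of the members and 16441 of all were higher, and 4729 of all were lower. Higher and lower were 9 and 1 of the alpha neighbours and 31 and 1 of the regulators, 14 of the handling list and 2 of the other globins were higher, and 0 of the haem list were lower. The same differences were 0.42, with the second not moved, then -0.21, -0.33 and 0.26.

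The authors' deposited log2 values gave 4600 higher probes, 0 higher alpha neighbours and 0 higher other globins, with Hba-a1 minus Hbb-b1 at 0.39. The alpha neighbours also had 0 higher with normexp offset 0, without background subtraction, without a filter and without the replicate block. Offset 0 gave 0.39 for Hba-a1 minus Hbb-b1 and 0.77 for Hbb-y minus Hbb-b1. The median of pixels gave 0.34 for Hba-a1 minus Hbb-b1, 0.011 for Hbb-b2 minus Hbb-b1 and 0.57 for Ahsp minus Hba-a1. The cause of these changes was not tested. Dim spots limit Hbb-y and Hba-x.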
